A study of Mus musculus with 3 samples.

Results

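A set of 10 genes that build fatty acids and triglycerides was followed across the 3 epithelial cell classes of the mouse mammary gland: Acly, Me1, Acaca, Fasn, Thrsp, Scd1, Scd2, Fabp5, Dgat1 and Dgat2. They were taken by gene symbol, and all 10 are present among the 19050 gene symbols of the count tables. All but a pair of them encode enzymes. Thrsp encodes a small regulator of lipid synthesis and Fabp5 a fatty-acid-binding protein, so the set is called lipid synthesis genes here. The data are 3 droplet single-cell RNA-seq libraries of 1 group for which no treatment is named, made from flow-sorted live epithelial cells of female FVB/NJ mice aged 10 weeks, with the number 4 glands of 4 mice pooled. The sorted cells had been stained for CD49f, EpCAM, CD31, CD45, Ter119 and a dead-cell dye. The labels state neither the reproductive state of the mice nor whether the libraries share 1 pool, so the spread behind each p-value may be technical.

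Fat synthesis in the cytosol starts from citrate. Acly splits citrate to acetyl-CoA, Acaca carboxylates acetyl-CoA to malonyl-CoA, Fasn condenses these units to a saturated fatty acid, and Me1 supplies NADPH for the reductions. Scd1 and Scd2 place a double bond in the finished chain, and Dgat1 and Dgat2 catalyse the last step of triglyceride assembly. In the mammary gland this route is best known from the secretory cells of lactation, which fill milk fat globules with triglyceride, and the same genes are used by most cells to make membrane lipid.

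Cells were assigned to a class one by one, and not by clustering, from 11 marker genes, none of which is a lipid synthesis gene. The luminal progenitor class was read from the UMI sum of Csn3, Elf5, Kit and Aldh1a3, the hormone-responsive class from Prlr, Areg, Pgr and Esr1, and the basal class from Krt5, Krt14 and Acta2. A UMI is a unique molecular identifier, which marks 1 captured transcript molecule. The largest sum had to reach 5 UMIs and 3 times each of the others. The class names stand for cells like these types, as far as the markers go. This gave 3099, 1639 and 3214 luminal progenitor cells in libraries 1, 2 and 3, then 344, 978 and 1208 hormone-responsive cells, and 1494, 4338 and 3931 basal cells, while 1066, 1333 and 1708 cells received no class. Median depth was 2828 to 3777 UMIs per luminal progenitor cell, 3332.5 to 3826 per hormone-responsive cell and 1721 to 2172 per basal cell. Csn3, itself a casein gene, had 61218, 26755 and 63313 UMIs in luminal progenitor cells of libraries 1, 2 and 3. Elf5, the next marker of that class, had 5454, 3573 and 6802. The class was thus set largely by a milk protein gene, and what this added to its lipid synthesis gene levels was not tested.

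Markers of other cell types were low in the classes. In the 9 sums of library and class, summed marker levels in CPM (UMIs scaled to the total of each sum) were 0 to 77.5 for fibroblasts, 3.87 to 17.2 for endothelial cells, 0.249 to 18.4 for pericytes, 0 to 1.89 for immune cells and 1.57 to 47.3 for erythroid cells. Adipocytes use the same synthesis genes. The adipocyte genes Adipoq, Lep, Cfd and Cidec were at 0 UMIs in the luminal progenitor cells of every library. The summed list of 8 adipocyte markers stood at 30.0, 36.7 and 45.7 CPM in luminal progenitor cells, at 3.20, 9.11 and 11.5 in hormone-responsive cells and at 2.42, 5.14 and 6.50 in basal cells. One gene, Adig, made up nearly all of the luminal progenitor value (29.8, 36.4 and 45.4 CPM). Libraries 1 and 2 shared 77 cell barcodes, libraries 1 and 3 shared 129, and libraries 2 and 3 shared 146.

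The promoters of 5 of the 10 genes were matched in the RefSeq promoter table of build GRCm38.p6 (Thrsp, Me1, Acaca, Acly and Fasn). The windows of Acly and Fasn are printed as examples of enzyme windows that hold NF-Y letters, and that of Thrsp because this gene differed most between classes. An Me1 window that also holds such letters is not printed. Each window has 300 bases, runs 5′ to 3′ on the gene's own strand and is placed by a RefSeq transcript start, which can differ from the gene ends of the GENCODE annotation given below. The matches of the Thrsp window and the match of the Acly window lie inside the GENCODE genes. The windows are Thrsp chr7:97417501-97417800, Fasn chr11:120824498-120824797 and Acly chr11:100527951-100528250, all on the minus strand. Capitals mark CCAAT or its complement ATTGG, the letters of the NF-Y box.
Thrsp: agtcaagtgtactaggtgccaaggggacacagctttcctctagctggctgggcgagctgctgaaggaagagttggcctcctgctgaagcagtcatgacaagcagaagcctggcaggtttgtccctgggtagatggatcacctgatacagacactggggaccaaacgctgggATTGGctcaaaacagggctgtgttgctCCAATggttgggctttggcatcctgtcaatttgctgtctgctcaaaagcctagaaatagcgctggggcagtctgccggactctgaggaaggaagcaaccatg
Fasn: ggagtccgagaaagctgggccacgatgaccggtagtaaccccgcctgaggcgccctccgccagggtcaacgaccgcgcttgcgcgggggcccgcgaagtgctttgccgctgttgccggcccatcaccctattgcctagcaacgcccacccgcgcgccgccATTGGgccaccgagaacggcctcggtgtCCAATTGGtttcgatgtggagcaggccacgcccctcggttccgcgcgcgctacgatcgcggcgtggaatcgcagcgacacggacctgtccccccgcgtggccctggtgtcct
Acly: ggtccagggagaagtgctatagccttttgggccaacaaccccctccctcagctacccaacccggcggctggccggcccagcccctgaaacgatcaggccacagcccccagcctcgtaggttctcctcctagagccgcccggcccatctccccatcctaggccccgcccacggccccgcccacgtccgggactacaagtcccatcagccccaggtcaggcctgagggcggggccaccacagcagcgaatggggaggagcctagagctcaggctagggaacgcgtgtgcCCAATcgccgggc
The Thrsp window holds 2 such matches, the Fasn window 3, of which 2 overlap in one palindromic run, and the Acly window 1. The second of 2 Me1 windows holds 1 match and the Acaca window holds 0. Both lie wholly inside their GENCODE genes. The Acaca window begins at 84195188, whereas the gene begins at 84129672 on the plus strand, so it does not cover that gene start. Of 32544 promoter windows in the table, 37.4% hold at least 1 match. Both strands of all 6 windows were also searched for the sterol regulatory element (in 0.0922% of all windows), an E-box (CACGTG, 7.17%) and a STAT site (TTCNNNGAA, 8.33%), and none holds any of these.

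In the genome, Acaca (chromosome 11, 84129672 to 84401651, plus strand), Acly (100476353 to 100528000, minus strand) and Fasn (120805846 to 120824547, minus strand) lie on chromosome 11 of GRCm38 (GENCODE annotation). Thrsp (97412938 to 97417730) and Dgat2 (99153658 to 99182719) lie on the minus strand of chromosome 7. Scd1 (44394455 to 44407879, minus strand) and Scd2 (44293674 to 44306864, plus strand) lie on chromosome 19 with their copies Scd3 and Scd4, and Scd4 lies between them. No source used here says how reads that fit several Scd genes, or both Fabp5 and its annotated processed pseudogene Fabp5l2, were counted, so values of these genes carry that uncertainty.

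The lipid synthesis genes did not share 1 pattern across the classes. Thrsp, Scd1, Me1, Acaca and Fasn were highest in luminal progenitor cells in every library. Dgat2 and Scd2 were highest in hormone-responsive cells in every library, and Fabp5 was lowest there, while luminal progenitor and basal cells both carried it. Dgat1 was also highest in luminal progenitor cells in every library, but by less than 2-fold. It was not called between any of the 3 classes in the unthinned sums. To be called, a gene needed an adjusted p below 0.05 (edgeR quasi-likelihood test, Benjamini-Hochberg over all genes tested) and a log2 fold change of at least 1 in either direction, which is 2-fold. Luminal progenitor against basal cells, 5 of the 10 genes were called higher and 1 lower, where 14.0% of 12643 tested genes were called higher and 17.3% lower (31.3% in all). Luminal progenitor against hormone-responsive cells, 5 were higher and 2 lower, with 14.1% and 10.4% of all genes (24.5% in all). Hormone-responsive against basal cells, 4 were higher and 1 lower, with 15.2% and 20.7% of all genes (35.9% in all). The median log2 fold change of the 10 genes was 1.13, 1.16 and 0.68 in these comparisons, beside 0.08, 0.05 and 0.00 over all genes. By adjusted p alone, 7 genes passed between luminal progenitor and basal cells, 6 higher and 1 lower, where 55.5% of all genes passed (29.3% higher and 26.2% lower). Between luminal progenitor and hormone-responsive cells 9 passed, 7 higher and 2 lower, where 43.0% of all genes passed (22.7% higher and 20.4% lower). Between hormone-responsive and basal cells 7 passed, 5 higher and 2 lower, where 57.5% of all genes passed (28.6% higher and 28.9% lower). Every pair of these comparisons shares a class.

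**Figure D1:**
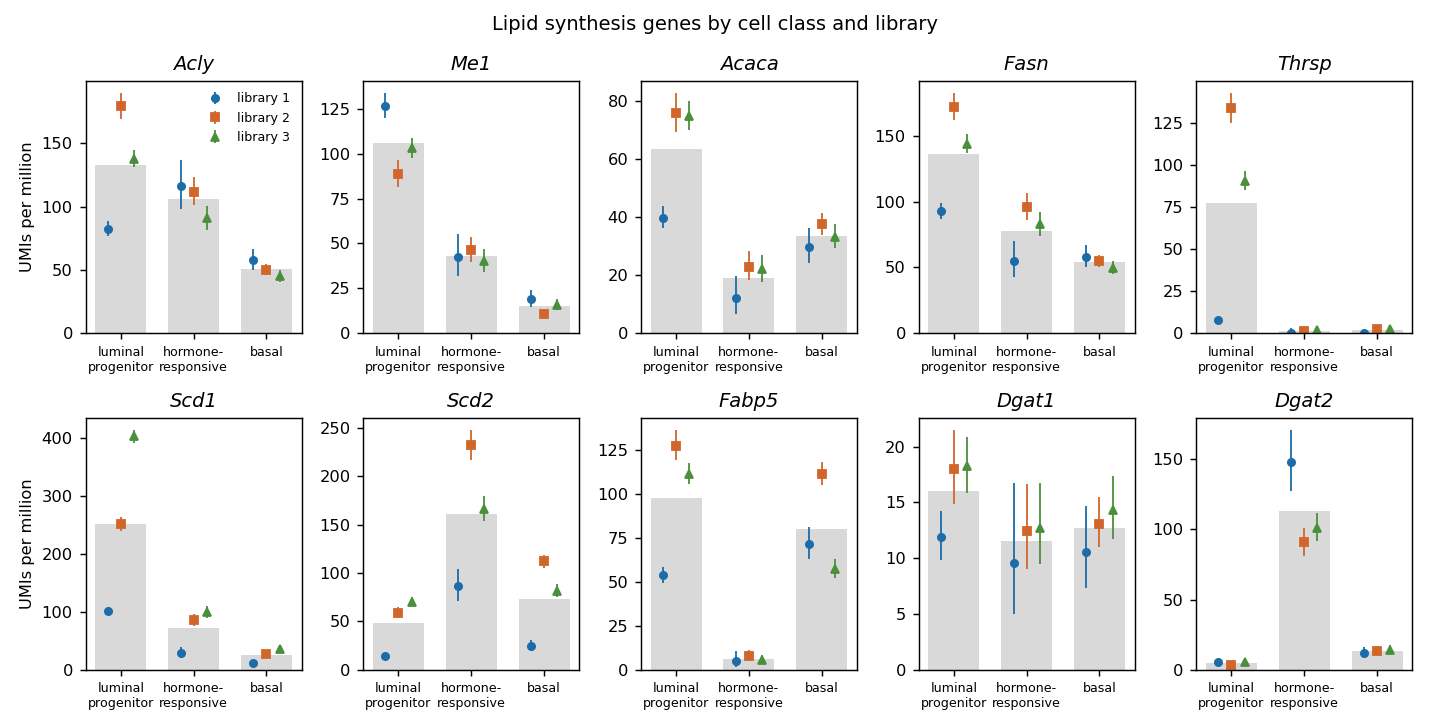
Level of each lipid synthesis gene in CPM (y axis) in luminal progenitor, hormone-responsive and basal cells. Points are the 3 libraries with exact 95% Poisson intervals, which cover counting error only, and grey bars are the means of the 3 libraries; Thrsp reaches 133 in luminal progenitor cells of library 2 and at most 2.62 in the other classes drawn, and Dgat2 lies between 90.9 and 148 in hormone-responsive cells.

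The supply of acetyl-CoA and NADPH differed between classes in different ways. Acly, ATP citrate lyase, stood at 82.5, 179 and 138 CPM in luminal progenitor cells of libraries 1, 2 and 3, at 116, 112 and 90.8 in hormone-responsive cells and at 57.5, 50.0 and 44.8 in basal cells. The luminal progenitor values overlapped those of hormone-responsive cells, and both lay above all basal values. Acly was higher in luminal progenitor than in basal cells, with a log2 fold change of 1.41 ± 0.76 (SD of the 3 within-library log2 ratios; adjusted p = 0.00148, edgeR). It was not called between luminal progenitor and hormone-responsive cells (0.45 ± 0.65, adjusted p = 0.179), where library 1 had the opposite sign of libraries 2 and 3. Hormone-responsive over basal cells, the log2 fold change was 0.96 ± 0.14 (adjusted p = 0.0111), just under 2-fold.

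Me1, the cytosolic malic enzyme, stood at 127, 88.7 and 103 CPM in luminal progenitor cells, at 42.4, 46.1 and 39.9 in hormone-responsive cells and at 18.7, 10.4 and 15.8 in basal cells. The 3 classes did not overlap and kept 1 order in all libraries. The log2 fold change was 2.89 ± 0.22 for luminal progenitor over basal cells (adjusted p = 4.08e-06), 1.40 ± 0.35 for luminal progenitor over hormone-responsive cells (adjusted p = 0.0004) and 1.49 ± 0.57 for hormone-responsive over basal cells (adjusted p = 0.000255). Me1 was called in all 3 comparisons, as was Scd1.

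The chain-building enzymes are Acaca and Fasn. Acaca, acetyl-CoA carboxylase 1, stood at 39.9, 75.8 and 74.9 CPM in luminal progenitor cells, at 12.0, 22.9 and 22.0 in hormone-responsive cells and at 29.6, 37.5 and 33.3 in basal cells. Hormone-responsive cells had the lowest level in each library, with no overlap with either other class. Luminal progenitor over hormone-responsive cells, Acaca had a log2 fold change of 1.84 with an SD of only 0.07 between libraries (adjusted p = 9.03e-05). Luminal progenitor over basal cells, it reached 0.93 ± 0.46 (adjusted p = 0.00174), under 2-fold, and 1.10 (adjusted p = 3.77e-06, called) without library 1. Hormone-responsive over basal cells, it was -0.91 ± 0.42 (adjusted p = 0.0036), under 2-fold, and it was called at -1.03 without library 2 and at -1.06 without library 3.

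Fasn, fatty acid synthase, stood at 92.9, 173 and 144 CPM in luminal progenitor cells, at 55.3, 95.8 and 82.8 in hormone-responsive cells and at 58.1, 55.0 and 49.7 in basal cells. Luminal progenitor cells had the highest level in each library, although their lowest library lay below the highest hormone-responsive one. Fasn was higher in luminal progenitor than in basal cells (log2 fold change 1.33 ± 0.59, adjusted p = 0.000653). Over hormone-responsive cells it was 0.92 ± 0.05 (adjusted p = 0.00673), just under 2-fold but nearly equal in the 3 libraries. Hormone-responsive and basal cells were not told apart (0.41 ± 0.55, adjusted p = 0.135).

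Thrsp, known as Spot 14, promotes fatty acid synthesis in liver and lactating mammary gland. It had 77, 869 and 1067 UMIs in luminal progenitor cells of libraries 1, 2 and 3, against 0, 4 and 7 in hormone-responsive and 1, 27 and 18 in basal cells. In CPM these are 7.56, 133 and 90.5 in luminal progenitor cells, 0, 1.10 and 1.75 in hormone-responsive cells and 0.302, 2.62 and 2.44 in basal cells. Within each library the luminal progenitor level was far above both other classes. The log2 fold change was 5.49 ± 1.00 over basal cells (adjusted p = 3.3e-07) and 6.38 ± 0.99 over hormone-responsive cells (adjusted p = 5.41e-07), and 5.48 and 6.37 without library 1. In library 1, where hormone-responsive cells had 0 UMIs, the floor of 3 UMIs in that sum gives a level at least 3.15-fold higher in luminal progenitor cells. Thrsp UMIs were found in 1.48%, 25.5% and 19.7% of luminal progenitor cells, in 0%, 0.409% and 0.579% of hormone-responsive cells and in 0.0669%, 0.622% and 0.458% of basal cells; the 0 of 344 hormone-responsive cells in library 1 has an exact 95% interval up to 1.07%. With every cell thinned to 1000 UMIs, the luminal progenitor shares were 0.459%, 8.36% and 7.39%.

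The Thrsp UMIs in hormone-responsive and basal cells were few, and their percentages of the luminal progenitor level lay near those of milk protein transcripts. Basal cells held 4.00%, 1.96% and 2.69% of the luminal progenitor Thrsp level of their library, and hormone-responsive cells 0%, 0.828% and 1.93%. The beta-casein gene Csn2 stood at 2.52%, 1.95% and 2.03% in basal and at 0.477%, 1.99% and 1.85% in hormone-responsive cells. Csn1s1, an alpha casein, stood between 2.12% and 2.27% in basal and between 1.40% and 2.32% in hormone-responsive cells, Lalba, alpha-lactalbumin, between 1.89% and 2.43% and between 1.87% and 2.30%, and Wap, whey acidic protein, at most at 4.07% and 2.30%. In library 2, Csn2 UMIs were in 41.6% of hormone-responsive and 31.8% of basal cells, against 75.9% of luminal progenitor cells. No expression of Thrsp in hormone-responsive or basal cells is read from these few UMIs, whose source was not tested. The difference between these classes was not called (log2 fold change -0.89 ± 0.31, adjusted p = 0.0942). Cells that received no class held more, with 9, 311 and 134 Thrsp UMIs, or 4.46, 80.6 and 36.0 CPM. Scd1 at 8.73% to 11.7% and Me1 at 11.7% to 15.4% of the luminal progenitor level in basal cells stood above the milk protein range, as did Fabp5 at 4.92% to 8.96% in hormone-responsive cells.

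**Figure D2:**
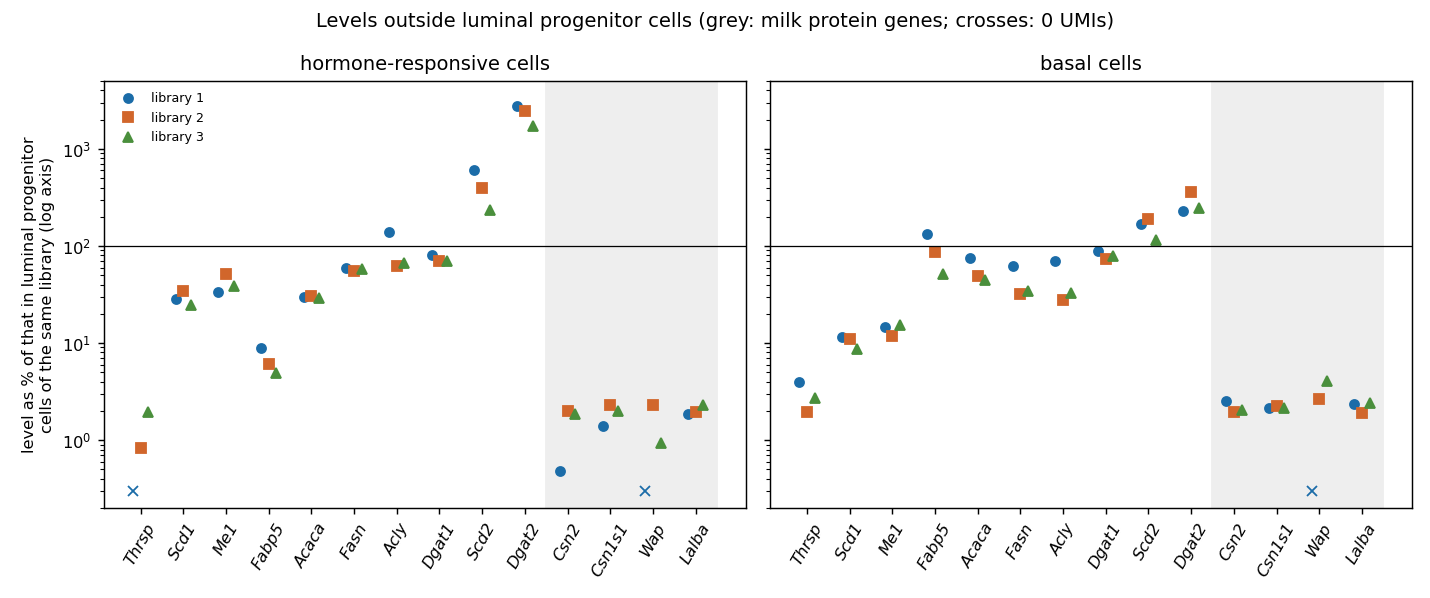
Level of each gene in hormone-responsive cells (left) and basal cells (right) as a percentage of the luminal progenitor level in the same library (log axis), for the 10 lipid synthesis genes and, on grey, 4 milk protein genes. Points are libraries, crosses mark 0 UMIs, and the line marks 100%. Thrsp lies near the milk protein genes, and Scd2 and Dgat2 lie above 100% on both sides. Thrsp is below the milk protein genes in hormone-responsive cells of library 2 and above them in basal cells of library 1, there from 1 UMI.

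The 2 desaturases differed in opposite directions between the luminal classes. Scd1, stearoyl-CoA desaturase 1, stood at 101, 251 and 403 CPM in luminal progenitor cells, at 28.8, 85.6 and 99.5 in hormone-responsive cells and at 11.8, 27.8 and 35.2 in basal cells. Each library had the same order of classes. Scd1 was higher in luminal progenitor than in basal cells (log2 fold change 3.33 ± 0.29, adjusted p = 6.26e-07) and hormone-responsive cells (1.92 ± 0.28, adjusted p = 1.47e-05), and higher in hormone-responsive than in basal cells (1.41 ± 0.24, adjusted p = 7.48e-05). With no term for the library, the call between hormone-responsive and basal cells was lost (1.44, adjusted p = 0.0652). The share of luminal progenitor cells with an Scd1 UMI was 22.7%, 45.3% and 58.6%.

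Scd2, the desaturase that is prominent in brain and in early life in mice, stood at 14.4, 58.9 and 70.3 CPM in luminal progenitor cells, at 86.5, 232 and 166 in hormone-responsive cells and at 24.5, 112 and 81.5 in basal cells. Hormone-responsive cells had the highest and luminal progenitor cells the lowest level in each library, and over all libraries the basal values overlapped those of both other classes. Scd2 was lower in luminal progenitor than in hormone-responsive cells (log2 fold change -1.74 ± 0.69, adjusted p = 0.000409). With no term for the library this was -1.62 (adjusted p = 0.0753). It was higher in hormone-responsive than in basal cells (1.17 ± 0.39, adjusted p = 0.00231), and 0.92 (adjusted p = 0.000413) without library 1, which is under 2-fold. Luminal progenitor and basal cells were not told apart (-0.57 ± 0.41, adjusted p = 0.06). Scd2 UMIs were in 22.4%, 48.9% and 38.3% of hormone-responsive cells.

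Fabp5, which carries fatty acids through the cytosol, was far lower in hormone-responsive cells than in both other classes. It stood at 53.6, 128 and 111 CPM in luminal progenitor cells, at 4.80, 7.73 and 5.49 in hormone-responsive cells and at 71.7, 111 and 57.2 in basal cells. Luminal progenitor and basal values overlapped, and hormone-responsive values lay below both in every library. The log2 fold change was 4.15 ± 0.47 for luminal progenitor over hormone-responsive cells (adjusted p = 1.46e-05) and -3.85 ± 0.30 for hormone-responsive over basal cells (adjusted p = 1.37e-05). Between luminal progenitor and basal cells the ratios of the 3 libraries were -0.45, 0.25 and 1.05 on the log2 scale, and the gene was not called (0.30 ± 0.75, adjusted p = 0.307).

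The enzymes of the last triglyceride step also differed from each other. Dgat2, diacylglycerol acyltransferase 2, stood at 5.30, 3.68 and 5.85 CPM in luminal progenitor cells, at 148, 90.9 and 101 in hormone-responsive cells and at 12.1, 13.1 and 14.3 in basal cells. The 3 classes did not overlap. Dgat2 was lower in luminal progenitor than in hormone-responsive cells (log2 fold change -4.34 ± 0.38, adjusted p = 8.51e-07) and than in basal cells (-1.40 ± 0.30, adjusted p = 0.000454), and higher in hormone-responsive than in basal cells (2.94 ± 0.40, adjusted p = 2.83e-06). Cells with a Dgat2 UMI made up 1.71%, 1.46% and 2.05% of luminal progenitor cells, 30.8%, 23.4% and 24.9% of hormone-responsive cells and 2.54%, 3.00% and 2.62% of basal cells. With cells thinned to 1000 UMIs the hormone-responsive shares were 9.30%, 9.05% and 10.1%.

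Dgat1, the other enzyme of this step, showed no such split. It stood at 11.9, 18.0 and 18.2 CPM in luminal progenitor cells, at 9.61, 12.4 and 12.7 in hormone-responsive cells and at 10.6, 13.1 and 14.3 in basal cells. Its values overlapped between all classes, although in each library luminal progenitor cells had the highest and hormone-responsive cells the lowest level. Dgat1 was not called in any comparison, although with cells thinned to 1000 UMIs it was called higher in luminal progenitor than in hormone-responsive cells (1.05, adjusted p = 0.0275). In the unthinned sums the log2 fold change was 0.38 ± 0.20 for luminal progenitor over basal cells (adjusted p = 0.0568), 0.60 ± 0.13 for luminal progenitor over hormone-responsive cells (adjusted p = 0.0175, under 2-fold) and -0.22 ± 0.10 for hormone-responsive over basal cells (adjusted p = 0.291).

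**Figure D3:**
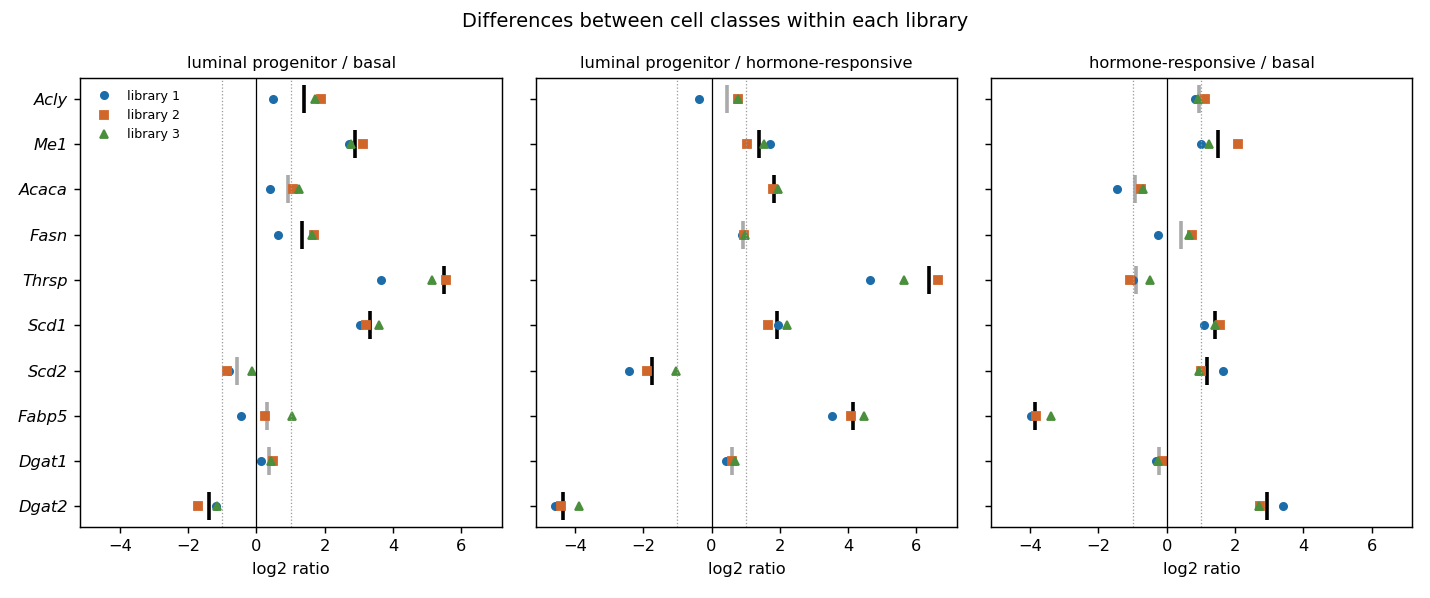
Log2 ratio of each lipid synthesis gene between 2 classes of the same library (x axis), for luminal progenitor over basal, luminal progenitor over hormone-responsive and hormone-responsive over basal cells. Points are the 3 libraries, vertical bars the fitted log2 fold changes (black where called, grey where not), and dotted lines mark 2-fold; Dgat2 at -4.34 and Thrsp at 6.38 span the middle panel.

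Library 1 stood apart for several of these genes. In luminal progenitor cells, the log2 ratio of library 1 to the mean of the other libraries was -3.89 for Thrsp, -2.21 for Scd2, -1.73 for Scd1, -1.23 for Fabp5, -1.01 for Acly, -0.99 for Acaca and -0.84 for Fasn, beside -5.55 for Csn2. Me1 (0.33) and Dgat2 (0.10) did not share this. Part of the difference was also present in the other classes: Scd1 stood at -1.74 in hormone-responsive and -1.36 in basal cells and Scd2 at -1.25 and -1.92, and Fasn at -0.76 in hormone-responsive and 0.18 in basal cells. Dgat1 stood at -0.67, -0.45 and -0.33 in luminal progenitor, hormone-responsive and basal cells, and Acly at 0.13 in hormone-responsive and 0.31 in basal cells. The labels give no contrast between the libraries, each library is 1 sample, and no test was made.

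Luminal progenitor cells were next ordered by the share of their UMIs that came from 6 milk protein genes (Csn1s1, Csn1s2a, Csn2, Wap, Lalba and Glycam1), and the 20% with the highest share in each library were compared with the other luminal progenitor cells of that library. These milk-high cells are a range of a score and not a cell type. They were 620, 328 and 643 cells, against 2479, 1311 and 2571 other cells. The median milk protein share was 0.270%, 5.85% and 4.40% in the milk-high cells and 0%, 0.709% and 0.326% in the others, and the lowest share admitted was 0.100%, 3.76% and 2.48%. Median depth was 2901, 4764.5 and 3803 UMIs in milk-high cells and 2803, 3477 and 3223 in the others. With all cells thinned to 1000 UMIs, Dgat2 was no longer tested and the calls of the other lipid synthesis genes were the same, although Me1 no longer passed the adjusted p (0.132).

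Acly, Me1, Acaca, Fasn, Thrsp and Scd1 were higher in milk-high cells by adjusted p, whereas Scd2, Fabp5, Dgat1 and Dgat2 did not pass. Of the 10 lipid synthesis genes 1, Thrsp, was called, where 0.934% of 10816 tested genes were called higher and 0.906% lower (1.84% in all). It stood at 20.4, 287 and 189 CPM in milk-high cells, against 4.30, 84.3 and 63.6 in the others, a log2 fold change of 1.87 ± 0.24 (adjusted p = 1.22e-08) and 1.82 without library 1. By adjusted p alone 6 were higher and 0 lower, where 8.75% of all genes passed (5.45% higher and 3.30% lower). Scd1 stood at 152, 380 and 610 in milk-high cells, against 88.3, 209.9 and 346 in the others (0.95 ± 0.09, adjusted p = 6.8e-07). Fasn stood at 132, 267 and 206 in milk-high cells, against 83.0, 142 and 128 in the others (0.88 ± 0.17, adjusted p = 5.99e-06). Thrsp, Scd1 and Fasn were each higher in the milk-high cells of all 3 libraries.

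Acaca (0.77 ± 0.15, adjusted p = 9.39e-05) and Acly (0.64 ± 0.33, adjusted p = 0.000851) were also higher in milk-high cells of all libraries by less than 2-fold. Me1 reached 0.48 ± 0.38 (adjusted p = 0.0149), but stood at 127 CPM in both groups of library 1. Me1 did not pass without library 2 (adjusted p = 0.0585) or library 3 (0.382), with DESeq2 (0.081), under the stricter class rule (0.0752) or without cells holding markers of other classes (0.454). Dgat2 (0.69 ± 0.70, adjusted p = 0.214), Dgat1 (0.34 ± 0.42, adjusted p = 0.318), Scd2 (0.11 ± 0.42, adjusted p = 0.709) and Fabp5 (0.09 ± 0.35, adjusted p = 0.719) were not called, and each differed in sign between libraries. The median log2 fold change of the 10 genes was 0.67, beside -0.01 over all genes. With milk-high defined as a share of at least 1%, Fasn was also called (1.01, adjusted p = 1.54e-07). With no term for the library, Thrsp was at 1.86 with an adjusted p of 1, and 1 gene of all tested was called.

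**Figure D4:**
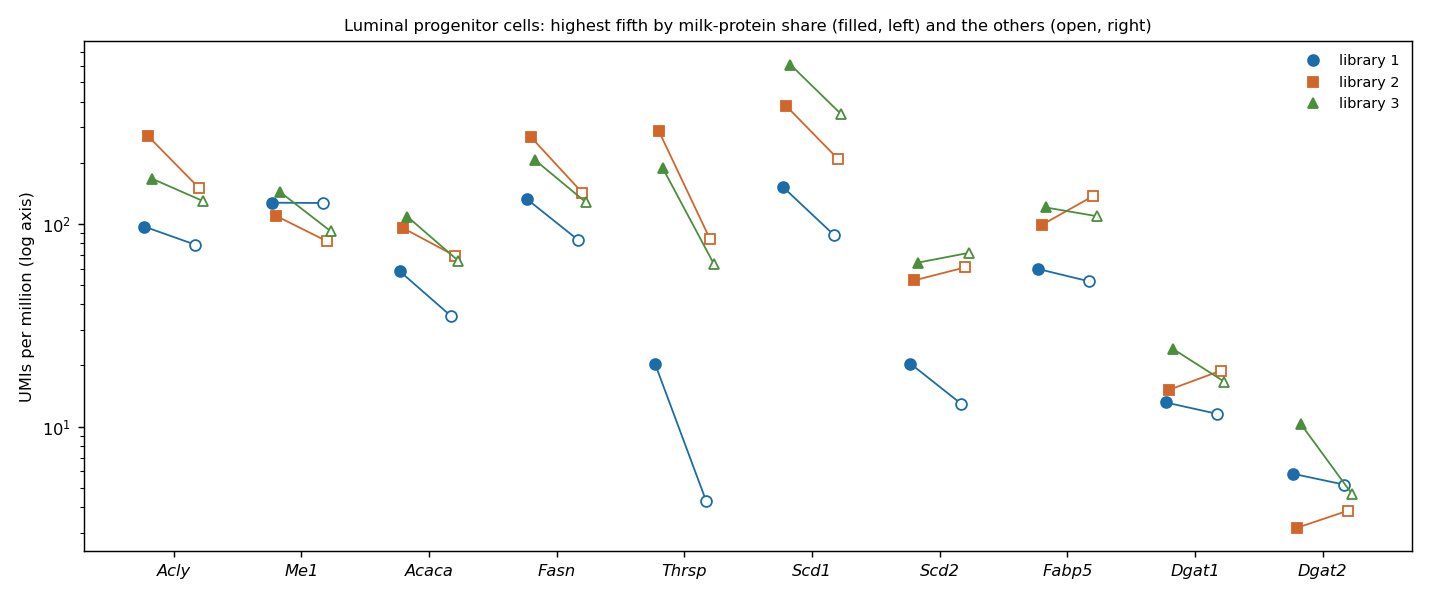
Level of each lipid synthesis gene in CPM (log axis) in the 20% of luminal progenitor cells with the highest milk protein share (filled, left) and in the other luminal progenitor cells (open, right), joined by a line within each of the 3 libraries. Thrsp has the steepest lines, Scd1, Fasn, Acaca and Acly are higher in milk-high cells of each library, and the lines of Scd2, Fabp5, Dgat1 and Dgat2 do not share 1 direction.

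A list of 95 other genes of lipid metabolism in 7 roles was read beside the 10; all 95 are in the tables and 84 passed the filter on low counts. Luminal progenitor over basal cells, 31 were higher, 9 lower and 44 not called, with a median log2 fold change of 0.74. Over hormone-responsive cells, 28 were higher, 8 lower and 48 not called (median 0.42). Hormone-responsive over basal cells, 16 were higher, 18 lower and 50 not called (median 0.32). The same background shares as above apply.

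In the role that supplies carbon and NADPH, 4 of 11 tested genes were higher in luminal progenitor than in basal cells and 0 lower. The 3 largest differences were in enzymes of the pentose phosphate pathway: the transketolase Tkt at 530 ± 159 against 96.7 ± 15.6 TMM-normalised CPM (mean ± SD, n = 3 libraries; log2 fold change 2.42 ± 0.38), the transaldolase Taldo1 (1.67 ± 0.18) and the phosphogluconate dehydrogenase Pgd (1.37 ± 0.40). All 3 were also higher in hormone-responsive than in basal cells, with Pgd at 1.43 ± 0.10, Taldo1 at 1.26 ± 0.10 and Tkt at 1.06 ± 0.19 over basal cells. Tkt fell just under 2-fold there without library 1 (0.98) and without library 3 (0.98).

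In elongation and desaturation, 6 of 14 genes were higher in luminal progenitor than in basal cells and 2 lower. The elongase Elovl7 (log2 fold change 3.08 ± 0.55) and the desaturase Scd3 (2.61 ± 0.31, at 2.50 ± 0.96 against 0.346 ± 0.302 normalised CPM) were higher. Elovl4, which makes very long chains, was at 0.946 ± 0.416 in luminal progenitor and 32.4 ± 5.54 in basal cells (-5.12 ± 0.28). Hormone-responsive over basal cells, Elovl7 was higher (3.42 ± 0.64) and Elovl4 lower (-5.92 ± 0.89).

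In activation and glycerolipid assembly, 4 of 19 genes were higher in luminal progenitor than in basal cells and 2 lower. Gpd1, which makes the glycerol 3-phosphate backbone, stood at 78.8 ± 28.7 against 3.43 ± 0.82 normalised CPM (log2 fold change 4.50 ± 0.27) and the acyl-CoA synthetase Acsl1 at 77.6 ± 23.8 against 12.3 ± 3.42 (2.65 ± 0.06). Agpat4, a lysophosphatidic acid acyltransferase, was lower (-4.83 ± 0.08). Its within-library log2 ratios were -4.53, -4.38 and -4.40, all smaller in size than the fitted value. Hormone-responsive over basal cells, Gpd1 was higher (3.50 ± 0.19) and Acsl1 lower (-1.78 ± 0.58).

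Among 8 genes of uptake and binding, 5 were higher and 2 lower in luminal progenitor than in basal cells. Lipoprotein lipase, Lpl, had a log2 fold change of 3.56 ± 1.31 and the acyl-CoA-binding protein Dbi of 2.63 ± 0.28. Fabp4, the binding protein of adipocytes and capillaries, was lower (-2.78 ± 1.94), but its basal level of 33.6 ± 37.0 varied more than its mean between libraries. Without library 1, Fabp4 was at -1.66. Endothelial markers in the basal sums were 17.2, 4.46 and 6.09 CPM, and their part in the Fabp4 difference was not tested.

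The lipid droplet role had 4 of 7 genes higher and 1 lower in luminal progenitor than in basal cells. Plin2, the coat protein of milk lipid droplets, stood at 611 ± 113 against 52.8 ± 11.2 normalised CPM (log2 fold change 3.53 ± 0.06). Plin5 (3.32 ± 0.76) was higher at levels under 4 normalised CPM, and Plin4 (-2.87 ± 0.52) was lower. In hormone-responsive cells, where Dgat2 was highest, Plin2 was at 49.7 ± 7.72, not told apart from basal cells (-0.10 ± 0.54, adjusted p = 0.679).

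Of 11 genes of triglyceride and fatty acid breakdown, 5 were higher in luminal progenitor than in basal cells, 0 lower and 6 not called. The lipase Pnpla2 (log2 fold change 2.32 ± 0.23), its activator Abhd5 (2.20 ± 1.06) and the mitochondrial Cpt2 (1.45 ± 0.21) had the largest differences. Among 14 regulators, 3 were higher and 2 lower. Srebf1, whose product activates Acaca, Fasn and Scd1 in liver, stood at 201.7 ± 27.3 against 80.1 ± 9.23 normalised CPM (1.33 ± 0.11, adjusted p = 2.34e-05). Over hormone-responsive cells Srebf1 was at 0.95 ± 0.17 (adjusted p = 0.000297), under 2-fold. The AMP-kinase subunit Prkaa2 (3.03 ± 0.28) was higher, and the liver X receptor Nr1h3 (1.42 ± 0.30, adjusted p = 0.0235) lost its call without library 2 (adjusted p = 0.111) or library 3 (adjusted p = 0.0913).

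**Figure D5:**
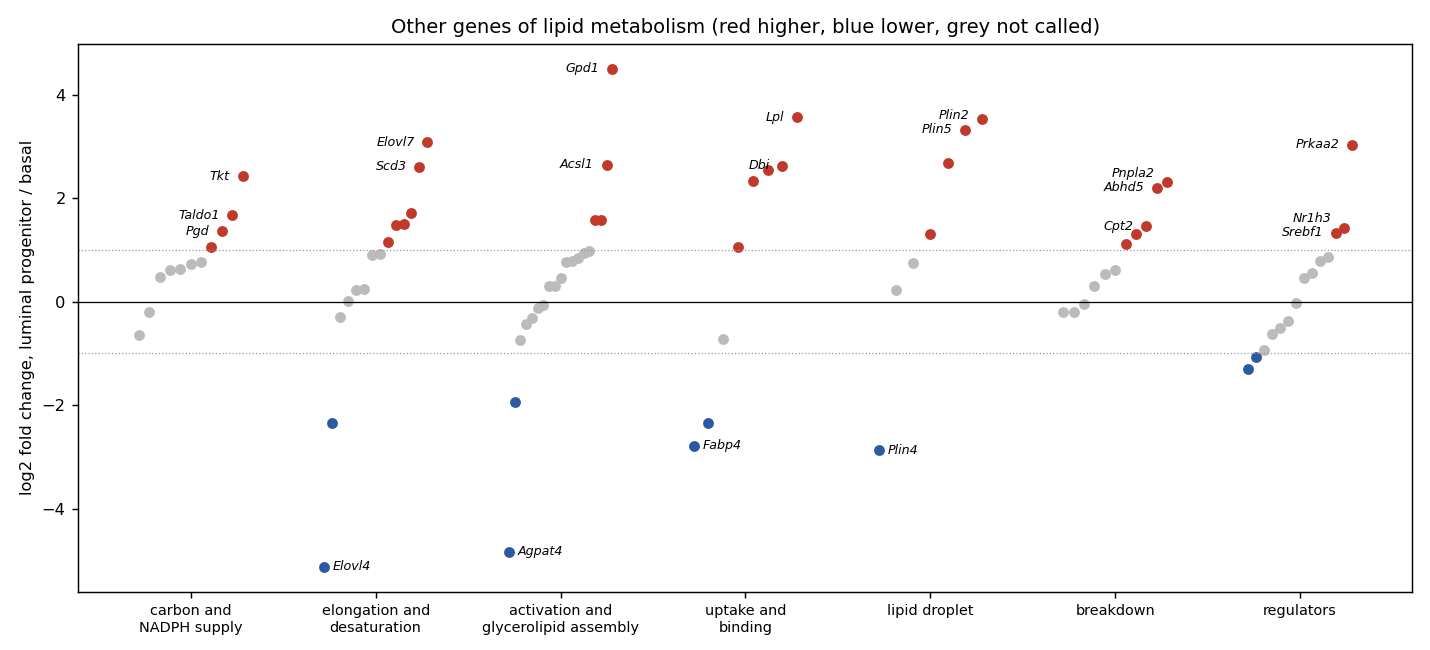
Log2 fold change of luminal progenitor over basal cells (y axis) for 84 tested genes of 7 lipid roles (x axis), sorted within each role. Red points are called higher, blue points called lower and grey points not called, and dotted lines mark 2-fold; the named genes are the 3 with the largest called difference in each role, from Gpd1 at 4.50 to Elovl4 at -5.12.

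In milk-high against other luminal progenitor cells, 4 of 77 tested genes of the list were called higher and 0 lower, where 0.934% and 0.906% of all genes were. By adjusted p alone 18 were higher and 1 lower, where 5.45% and 3.30% of all genes were. The 4 were Fabp3, chosen after its values were seen, the binding protein of heart and mammary gland (log2 fold change 3.30 ± 0.71, adjusted p = 4.46e-07), Lpl (1.61 ± 0.50, adjusted p = 3.8e-06), Abhd5 (1.27 ± 0.51, adjusted p = 7.23e-06) and Gpd1 (1.02 ± 0.26, adjusted p = 7.16e-06). Fabp3 was at 24.3 ± 29.6 against 2.28 ± 2.32 normalised CPM, a wide spread between libraries around a ratio with 1 direction. Gpd1 fell just under 2-fold without library 2 (0.92) and without library 3 (0.99). Plin2 (0.78 ± 0.20, adjusted p = 6.79e-06) and Srebf1 (0.31 ± 0.09, adjusted p = 0.0235) were higher by less than 2-fold.

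The genes whose levels over the 9 sums of library and class were most like those of Thrsp, by Pearson correlation of log2 CPM over 12642 genes, were Cyp24a1 (0.992), Sirpa (0.991), Cyp2f2 (0.986), E430025E21Rik (0.979) and Saa2 (0.978). Cyp24a1, the vitamin D hydroxylase, averaged 44.5 normalised CPM in luminal progenitor cells, 0.587 in hormone-responsive and 1.05 in basal cells. Those most like Scd2 were Bag6 (0.978), Sdhc (0.973), Efs (0.964), Nfatc3 (0.960) and Nedd8 (0.959). Bag6 averaged 109.8 in luminal progenitor, 153 in hormone-responsive and 116 in basal cells, a far narrower range between classes than that of Scd2. The 9 sums come from 3 libraries, so likeness reflects differences between libraries as well as between classes.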

How the data were processed

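The authors deposited raw UMI counts per gene and cell for 3 libraries, made with Cell Ranger 2.1.0 on build mm10, per the submitters' processing notes. Totals were 18584156, 27220670 and 30984706 UMIs in libraries 1, 2 and 3, and 0 sample columns were left unused. Cells with at least 500 genes and under 10% mitochondrial UMIs were kept, the cells with the highest Scrublet scores (scanpy 1.11.5) were removed as doublets at 0.8% per 1000 barcodes (340, 646 and 982 cells), and 6003, 8288 and 10061 cells remained. Counts were summed per library and class and tested with edgeR 4.0.16 in R 4.3.3 (quasi-likelihood, TMM, filterByExpr, library as a block, two-sided). The 11 class markers were left out of the tests between classes, and these and the 6 milk genes out of the milk-high test. Levels per library are CPM scaled by total UMIs, means are TMM-normalised CPM, and errors are SDs over 3 libraries. Log2 fold changes are edgeR fits, whereas their errors are SDs of within-library ratios of log2 CPM with a prior count of 2. Poisson and binomial intervals and floors cover counting error only.

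Libraries were treated as pairs because the classes of 1 library come from 1 cell suspension. Deviations from the class means correlated between classes of the same library (r from 0.186 to 0.406 over 12654 genes). Between libraries r ran from -0.330 to 0.066. Taking deviations from a mean of 3 libraries itself lowers r between libraries, so the gap between these ranges is partly built in. The genes, the list of 95 and the tests were chosen with earlier results of these data known. Named were the 10 genes, per role of the list the 3 called genes with the largest change between luminal progenitor and basal cells, and the 5 genes most like Thrsp and Scd2. Genes named outside this rule are marked as chosen after their values were seen. Promoters come from RefSeq (GRCm38.p6). The edgeR procedure for luminal progenitor over basal cells was tried on simulated sums with known changes and no library differences. Class assignment and the other comparisons were not simulated.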

Additional observations from a re-analysis of the deposited data

Results flagged for a closer look

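Cells that received no class entered no comparison, and they carried the lipid synthesis genes too, which is why they are given here. The summed level of the 10 genes in them was 452.2, 907.9 and 758.7 CPM in libraries 1, 2 and 3. It was 536.0, 1109 and 1159 in luminal progenitor cells, 503.7, 706.1 and 622.2 in hormone-responsive cells and 294.9, 432.9 and 348.6 in basal cells. In each library this sum in cells of no class lay between those of basal and luminal progenitor cells. Single genes did not all keep this order. Fabp5 stood at 98.6, 152 and 98.6 CPM in cells of no class, above every class in libraries 1 and 2. The cells of no class also held summed fibroblast markers at 26.2, 1923 and 985 CPM, erythroid markers at 40.1, 107.8 and 301.3 CPM and endothelial markers at 70.8, 64.0 and 49.95 CPM. Markers of the epithelial classes were present in them too. Elf5 stood at 203, 302 and 230 CPM, Kit at 178, 168 and 158, Prlr at 144, 189 and 257 and Krt14 at 209, 242 and 167. Which cells carried the genes was not tested.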

How the results depend on the processing

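Over the alternatives, no named gene that was called changed sign. Adjusted p alone gave 7020 of all genes between luminal progenitor and basal cells (main 3957), 5441 between luminal progenitor and hormone-responsive cells (3099), 7270 between hormone-responsive and basal cells (4537) and 946 between milk-high and other cells (199); list genes higher were 48, 36 between hormone-responsive and basal cells and 18 in milk-high cells, and lower were 14 between the luminal classes and 1 in milk-high cells, where 6 lipid synthesis genes were higher. With no replicate block for the pairing, 1 lipid synthesis gene was lower in luminal progenitor than in hormone-responsive cells (Scd2 lost its call), 2 were higher in hormone-responsive than in basal cells (Scd1 and Scd2 lost theirs), and 0 were higher in milk-high cells, with 1 gene of all and 0 of the list. Lower in hormone-responsive than in basal cells were 2 lipid synthesis genes with doublets kept, without cells holding markers of other classes or by adjusted p alone, 3 under the stricter class rule, and 1 to 2 without single libraries. Thinning left 5 list genes lower in luminal progenitor than in hormone-responsive cells and 1 lower in milk-high cells. Genes called in milk-high cells were 108 with DESeq2 1.42.0, 80 without cells holding other markers, 129 thinned and 119 to 335 without single libraries, and 2 lipid synthesis genes were higher at a milk share of at least 1%. 

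Sign changes arose among values that were not called. Luminal progenitor over hormone-responsive cells, without cells holding other markers Elovl4 was -0.26 and Cpt2 0.11, and thinned Cpt2 was 0.15. In milk-high cells Taldo1 was -0.076 without cells holding other markers, Cpt2 -0.24 thinned and Plin5 0.56 at 1%. The cause of these changes was not tested. Without single libraries, the ranges were -0.10 to 0.57 for Fabp5 (luminal progenitor over basal cells), and -0.16 to 0.10 for Pgd, -0.71 to 0.21 for Nr1h3 (luminal progenitor over hormone-responsive cells), and -0.47 to 1.78 for Lpl, -0.45 to 0.082 for Plin2 (hormone-responsive over basal cells), and -0.030 to 0.23 for Scd2, -0.22 to 0.13 for Plin5, -0.021 to 0.27 for Cpt2, -0.12 to 0.010 for Prkaa2, -0.31 to 0.17 for Fabp4, -0.065 to 0.80 for Nr1h3, -0.046 to 0.29 for Fabp5 (milk-high over other cells).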

Other observations

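Other genes of the list also differed between classes, and those named here were chosen after their values were seen. G6pdx, the first enzyme of the pentose phosphate pathway, averaged 113 ± 11.5 normalised CPM in hormone-responsive cells, against 21.9 ± 6.27 in luminal progenitor and 13.0 ± 2.37 in basal cells. Lpin2, a phosphatidate phosphatase, averaged 98.6 ± 49.6 in hormone-responsive cells, against 8.01 ± 3.77 in luminal progenitor and 31.0 ± 14.0 in basal cells. The acyl-CoA synthetase Acsl5 averaged 79.3 ± 4.28 in hormone-responsive cells, against 37.2 ± 7.75 in luminal progenitor and 19.7 ± 4.17 in basal cells. Acsl5 was under 2-fold between luminal progenitor and basal cells (log2 fold change 0.94), and also between luminal progenitor and hormone-responsive cells without library 1 (-0.90). Like Dgat2, these genes were highest in hormone-responsive cells.

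Other genes were lowest in hormone-responsive cells, as Fabp5 was. Mgll, the monoglyceride lipase, averaged 4.41 ± 0.642 normalised CPM there, against 102.5 ± 35.4 in luminal progenitor and 64.2 ± 5.65 in basal cells. Fads1, a desaturase of polyunsaturated fatty acids, averaged 10.2 ± 5.82 in hormone-responsive cells, against 155 ± 21.6 in luminal progenitor and 83.2 ± 10.3 in basal cells. Mid1ip1, the closest relative of Thrsp, averaged 6.21 ± 2.38 in luminal progenitor cells, against 18.6 ± 2.63 in hormone-responsive and 15.2 ± 1.33 in basal cells, so its lowest class was the one in which Thrsp was highest.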
